A study of Mus musculus with 8 samples.

Results

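Nerve terminals release transmitter with a set of proteins that sit on synaptic vesicles, at the release site or in the membrane around it, and the genes for 48 of these proteins are described here. They were taken from a fixed list of symbols, and all 48 were found among the 34299 genes of the count table. By function the list holds 19 vesicle proteins, 8 SNARE proteins and their helpers, 12 active zone proteins, 4 endocytosis proteins, 3 vesicular transmitter transporters and 2 neurexins. RNA-seq of polyadenylated RNA from mouse brain gave the values, and the sample titles name no brain region. The groups were 3 wild-type (WT) libraries and 3 Cav1 knockout (KO) libraries, which lack the membrane protein caveolin 1, both from fetuses at gestation day 15, and 2 Cav1 KO libraries from brains at week 70. The labels name the KO by the gene alone, with no allele, strain, sex or Cre driver. No WT brain of week 70 was analysed here, so that age was compared within the KO, and week 70 set beside WT day 15 differs in both age and genotype. The KO day 15 libraries enter both comparisons, which are therefore not independent.

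In background terms, a nerve terminal loads transmitter into vesicles through vesicular transporters, and synapsins tether the filled vesicles in a reserve pool. Active zone scaffolds dock and prime vesicles beside calcium channels. Synaptotagmins sense the calcium that enters, and the SNARE proteins of the vesicle and the plasma membrane then zip together and fuse the 2 membranes. Dynamin and its partners retrieve the membrane afterwards, and neurexins on the terminal bind partners on the receiving neuron. In the fetal mouse brain few synapses have formed, and most of these genes are known to rise as neurons mature after birth.

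Promoter sequence is given for 3 genes. They are Syn1, which fell furthest in the fetal KO, Slc17a7, which rose furthest with age, and Slc17a6, a related transporter gene that fell with age. The sequences are RefSeq windows on GRCm38.p6 from 250 bases before to 50 bases after the annotated start, read 5′ to 3′ on the strand of the gene. Syn1 lies at chrX:20920869-20921168 on the minus strand, Slc17a7 at chr7:45163671-45163970 on the plus strand and Slc17a6 at chr7:51621580-51621879 on the plus strand. Capitals mark the searched letters: in Syn1 an RE1 match (the element bound by the neuronal repressor REST) and a cAMP response element, and in the other genes GC boxes.
Syn1: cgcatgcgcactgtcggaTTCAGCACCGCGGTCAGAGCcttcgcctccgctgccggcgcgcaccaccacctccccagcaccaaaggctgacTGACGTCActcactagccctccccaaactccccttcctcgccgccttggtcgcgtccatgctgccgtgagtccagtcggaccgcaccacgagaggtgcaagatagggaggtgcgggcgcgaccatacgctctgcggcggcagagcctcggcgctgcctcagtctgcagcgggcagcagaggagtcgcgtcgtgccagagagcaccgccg
Slc17a7: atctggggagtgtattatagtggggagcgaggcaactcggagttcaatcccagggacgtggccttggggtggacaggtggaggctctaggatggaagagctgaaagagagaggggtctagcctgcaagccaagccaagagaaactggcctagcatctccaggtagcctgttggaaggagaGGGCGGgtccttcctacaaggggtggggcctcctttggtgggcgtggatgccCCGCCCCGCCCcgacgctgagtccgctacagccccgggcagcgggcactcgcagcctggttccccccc
Slc17a6: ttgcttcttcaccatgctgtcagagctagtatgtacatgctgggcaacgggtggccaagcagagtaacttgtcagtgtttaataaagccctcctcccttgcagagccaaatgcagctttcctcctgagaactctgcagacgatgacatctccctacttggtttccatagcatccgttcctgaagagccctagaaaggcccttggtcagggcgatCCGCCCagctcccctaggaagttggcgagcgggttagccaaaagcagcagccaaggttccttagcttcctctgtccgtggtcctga

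RefSeq windows were matched for 37 of the 48 genes, with 49 windows in all. The GC box, GGGCGG on either strand, was present in 30 of the 49 windows (61.2%) and in 35.7% of all 32851 promoter windows. The RE1 letters TTCAGCACC and GGACAGCGC, separated by any 2 bases and with up to 2 mismatches in all, were found in 1 of the 49 windows, that of Syn1, and in 0.0365% of all windows. In Syn1 this match had 2 mismatches and spanned positions 232 to 213 before the start. The cAMP response element TGACGTCA was found in 2 of the 49 windows (4.08%), those of Syn1 and Sh3gl2, and in 1.79% of all windows. TATAAA was found in 2 of the 49 windows, both of Sv2b, and in 13.6% of all windows. The median GC content of the 49 windows was 62.0%, against 52.7% over all windows, so that the GC box share was measured in windows richer in G and C. These matches describe letters, and binding was not measured.

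Total counts were 19414747 to 20833397 in the WT libraries, 14110031 to 15245283 in the KO libraries of day 15, and 18924304 and 20203233 at week 70. Depth thus separated the fetal genotypes, no batch or litter is named in the labels, and genotype and batch cannot be told apart. Cav1 had 218 to 367 counts in each WT library, 0 to 3 in each KO library of day 15, and 1 and 5 at week 70. The summed level of 10 mature neuron markers was 2498 to 3129 in WT, in counts scaled to library size (normalised CPM), 2795 to 2958 in KO day 15 and 10800 to 11880 at week 70. That of 8 immature neuron markers was 7467 to 8218, 4916 to 5000 and 1109 to 1133 CPM, and that of 8 progenitor markers 1433 to 1651, 655.8 to 671.2 and 209.6 to 218.3 CPM. Within the mature neuron sum, Snhg11 alone was at 648.8 to 990.8 CPM in WT and 1273 to 1468 in KO day 15. The similar sums at day 15 therefore do not stand for each marker: 5 of these 10 markers were lower in KO and 1 was higher. Marker levels of other tissues were uneven within and between the groups. The fibroblast sum ran from 306.5 to 4443 CPM in WT, from 67.76 to 141.1 in KO day 15 and from 121.3 to 141.5 at week 70. In WT replicate 1 the fibroblast gene Col1a1 was at 2334 CPM and the skeletal muscle gene Acta1 at 13.19. The other WT libraries were at 70.34 and 131.9 for Col1a1 and at 1.349 and 1.509 for Acta1. Hoxa5, a hindbrain and spinal cord gene, was at 43.6 CPM in WT replicate 3 and at 0 in the other WT libraries. In the KO libraries of day 15 it was at 1.82, 9.628 and 0.05801 CPM. The week 70 libraries differed in the pituitary marker Pomc, at 2.441 and 55.81 CPM, and in Pou4f1, a listed sensory neuron marker, at 0.7256 and 5.381. The part of these differences in the presynaptic values was not tested. The 6 cerebellum markers summed to 71.2 to 76.3 CPM in WT, 63.57 to 69.51 in KO day 15 and 139.2 to 186.6 at week 70. Of these, Calb1 was at 155.0 and 113.7 CPM at week 70, but Gabra6 at 0.7256 and 0.2069 and Pcp2 at 0.5277 and 0.3449. Which brain regions the samples held was not tested. In these bulk samples, fewer cells of a type and less RNA per cell cannot be told apart.

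At day 15 more of the presynaptic genes were lower than higher in the KO fetal brain, by a margin that narrowed once transcript length and GC content were adjusted for. Of the 48 genes, 32 fell, 5 rose and 11 did not pass the test, at an adjusted p under 0.05 in edgeR over the 19147 genes tested. The falls were led by Syn1, Bsn, Nrxn2, Sv2c, Slc32a1, Sv2a and Slc17a7, the 7 genes that fell by at least 1 on the log2 scale. The 5 rises were Synpr, Napb, Snap25, Syt4 and Rab3c. Over all tested genes, 2068 of 19147 passed with a fall of at least 1. With transcript length and GC content adjusted for, 3 of the 48 genes fell that far (Syn1, Sv2c and Slc32a1), beside 1086 of 19050. The KO differed from the WT in a large part of all genes, so the shares are read against that background: 62.6% of all tested genes passed the test, 30.1% upward and 32.5% downward, whereas 10.4% of the presynaptic genes rose and 66.7% fell. Their median log2 fold change was -0.53, beside 0.03 over all tested genes. Normalised levels in CPM did not overlap between the genotypes for 39 of the 48 genes, 35 lower and 4 higher in KO, beside 68.3% of all tested genes without overlap in either direction. Marker genes of neurons moved in the same comparison: 5 of 10 mature neuron markers fell and 1 rose, 5 of 8 immature neuron markers fell and 2 rose, all 8 progenitor markers fell, and all 6 forebrain markers fell (summed level 829.8 to 978.7 CPM in WT and 381.7 to 399.7 in KO). With transcript length and GC content adjusted for, 2 of the mature neuron markers were lower and 3 higher (median 0.114, from -0.311 without). In that fit 5 immature neuron markers were lower and 1 higher, 6 progenitor markers were lower and 1 higher, and all 6 forebrain markers were lower. The part of these markers in the presynaptic values was not tested.

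**Figure D1:**
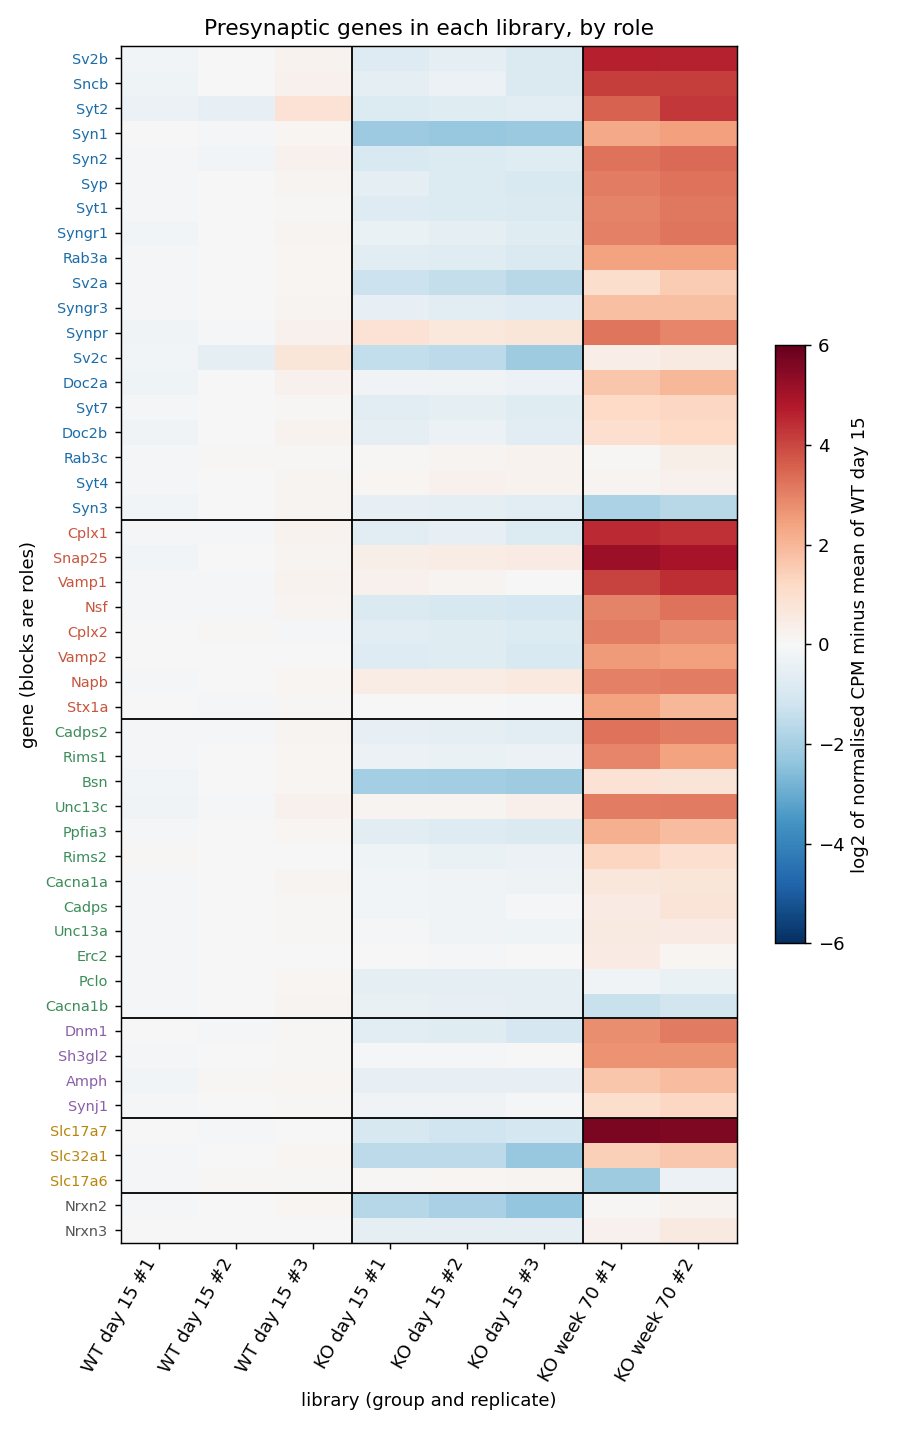
Level of each of the 48 genes (rows, in blocks by function) in each of the 8 libraries (columns), as log2 of normalised CPM minus the mean of the 3 WT day 15 libraries. Most rows are blue in the KO day 15 columns and red at week 70, and Syn3, Cacna1b, Slc17a6 and Pclo are below 0 in both week 70 columns.

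How many of these genes were lower in the fetal KO depended on whether transcript length and GC content were adjusted for. With each library's trend on those properties removed, 19 of the 48 genes were lower (39.6%, beside 25.8% of the 19050 genes tested) and 14 higher (29.2%, beside 27.8%), 33 in all beside 53.6% called over all genes. The median was then -0.05, against 0.04 over all genes, so that the share of higher genes and the median were near those of all genes. Among the 32 genes lower without the adjustment, 18 were lower with it too: Syn1, Syn2, Syp, Syt1, Sv2a, Sv2b, Sv2c, Syngr3, Rab3a, Vamp2, Cplx1, Cplx2, Nsf, Bsn, Pclo, Slc17a7, Slc32a1 and Nrxn2. For Syt7, Ppfia3 and Cacna1b the call turned to higher, and the other 11 did not pass. Of the 5 rises, Synpr and Napb were kept, Rab3c and Snap25 did not pass, and Syt4 turned to lower. With upper-quartile scaling the median over all genes moved from 0.03 to 0.20 and that of the presynaptic genes to -0.36. Of the 48 genes, 29 were then lower (60.4%, beside 25.7% of all tested genes) and 10 higher (20.8%, beside 39.8%). Slc17a6 and Vamp1 were among the genes higher under that scaling (adjusted p = 0.0021 and 0.0238).

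**Figure D2:**
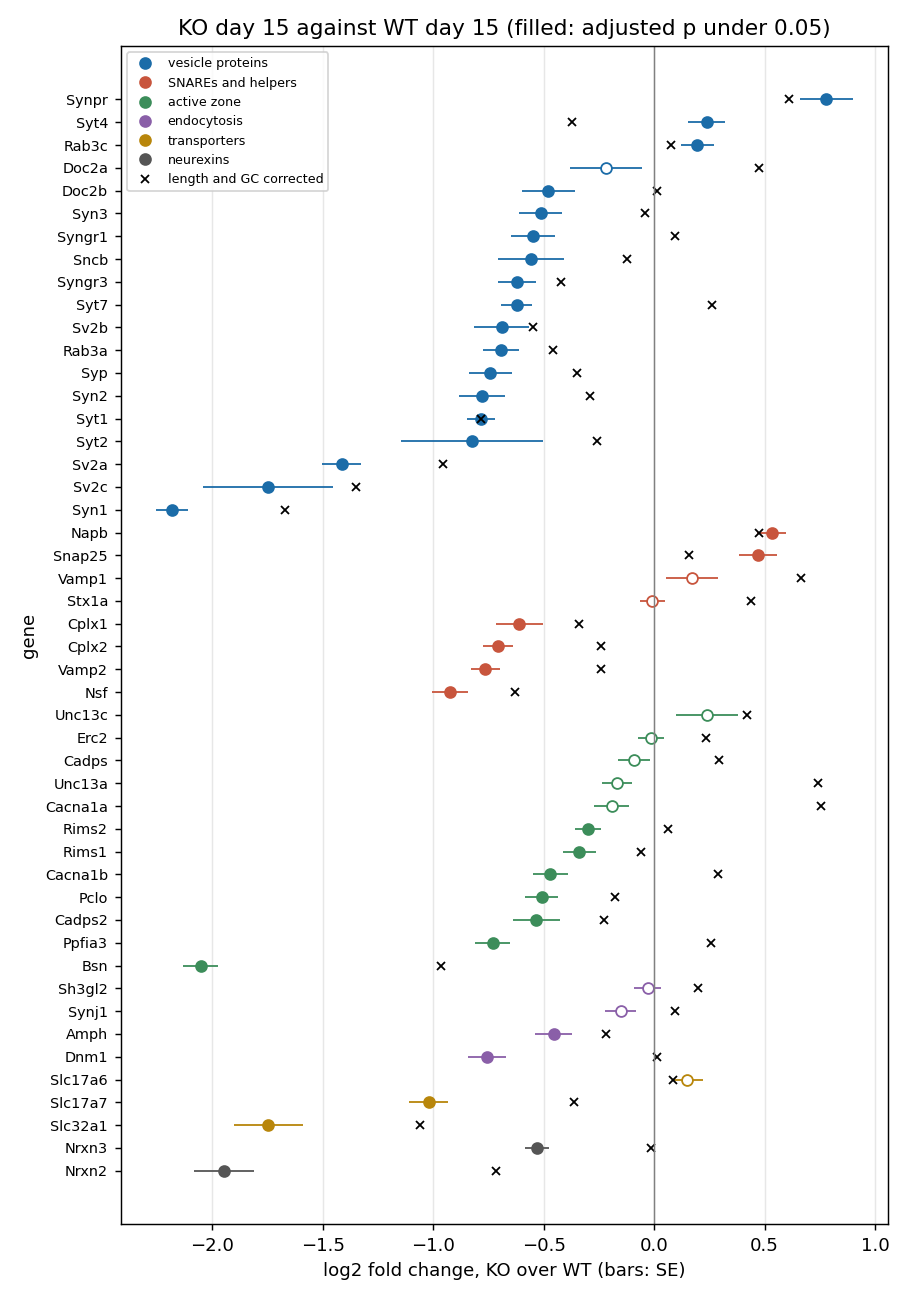
log2 fold change of KO over WT at day 15 for each of the 48 genes (points, filled where the adjusted p is under 0.05; bars are 1 standard error), with the value after the length and GC correction as a cross. Syn1 is lowest at -2.18 and stays lowest with the correction at -1.67, while Cacna1a and Unc13a move from below 0 to 0.75 and 0.74.

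Across the 48 genes, the day 15 log2 fold change and the GC content of the transcripts had a Spearman rho of -0.55, and -0.11 after the correction. The points share libraries and base composition, and the coefficient is a description. GC content ran from 40.7% to 61.9%, with a median of 51.8% beside 49.6% over tested genes. The 5 genes that rose, Snap25, Syt4, Synpr, Rab3c and Napb, lay at the GC-poor end, and Slc32a1, Doc2a and Nrxn2 at the GC-rich end. Not all GC-poor genes rose: Syt1 at 44.1% and Sv2b at 45.7% were lower with and without the correction. Median exon length was 7424 bases, beside 3723 over tested genes. Whether GC content has a part in these differences was not tested beyond the corrected fit.

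**Figure D3:**
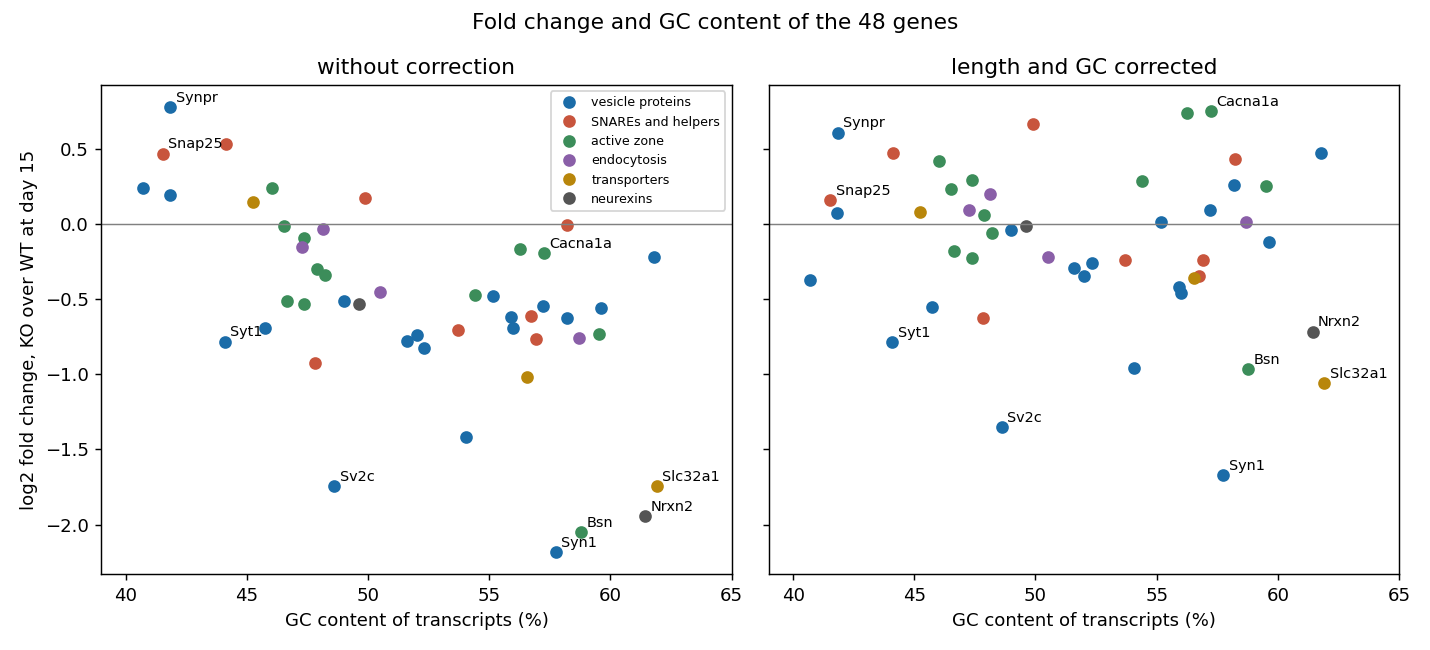
log2 fold change of KO over WT at day 15 against the GC content of the transcripts in percent, 1 point for each of the 48 genes, without (left) and with (right) the length and GC correction. The downward slope on the left, with Synpr at top left and Slc32a1 and Nrxn2 at bottom right, is weaker on the right.

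Between day 15 and week 70 of the KO, expression of the presynaptic genes rose widely. Of the 48 genes, 42 rose, 3 fell (Syn3, Cacna1b and Slc17a6) and 3 did not pass the test (Syt4, Rab3c and Pclo) over the 20000 genes tested with edgeR. The largest rise was in Slc17a7, 95.2-fold, or 53.8-fold with the length and GC correction. By at least 1 on the log2 scale, 37 of the 48 genes rose, beside 5244 of the 20000 tested genes. With the correction 33 rose that far, beside 5330 of 19896. Age moved most genes of the table: 82.0% of all tested genes passed, 37.6% upward and 44.4% downward, whereas 87.5% of the presynaptic genes rose and 6.25% fell. Their median log2 fold change was 2.66, beside -0.19 over all genes. Levels did not overlap for 46 of the 48 genes, 43 higher and 3 lower at week 70, beside 87.9% of all tested genes. With the length and GC correction 43 rose and 3 fell. Over all genes 78.3% then passed, 38.8% upward and 39.5% downward. The median was 2.08 beside -0.06 over all genes, and Unc13a and Cacna1a no longer passed. With upper-quartile scaling the median over all genes was -0.44 and that of the presynaptic genes 2.41. Of the 48 genes, 41 were higher and 5 lower, now including Syt4 and Rab3c, beside 32.4% and 49.8% of all tested genes. In the same comparison 9 of 10 mature neuron markers rose and 1 fell, and all 8 immature neuron markers fell; the part of this change in cell makeup was not tested.

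The 48 genes together held 0.603% ± 0.0438 of all counts in WT and 0.479% ± 0.0104 in KO at day 15 (SD, n = 3 each), and 2.11% ± 0.0566 at week 70 (SD, n = 2). The SNARE group had the widest span, with a summed level of 964 ± 39.1 CPM in WT, 760 ± 18.8 in KO day 15 and 10800 ± 464 at week 70. Vesicle proteins went from 1940 ± 180 in WT to 1390 ± 28.2 in KO and 8780 ± 609 at week 70. The active zone genes had sums of 1690 ± 126, 1190 ± 26.6 and 3090 ± 209 CPM. Endocytosis genes summed to 526 ± 29.9, 388 ± 8.11 and 2740 ± 357 CPM, transporter genes to 199 ± 12.6, 154 ± 2.77 and 1820 ± 14.5, and the neurexins to 576 ± 46.9, 195 ± 24.2 and 656 ± 53.0. These sums are levels, led in each group by the most abundant genes.

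**Figure D4:**
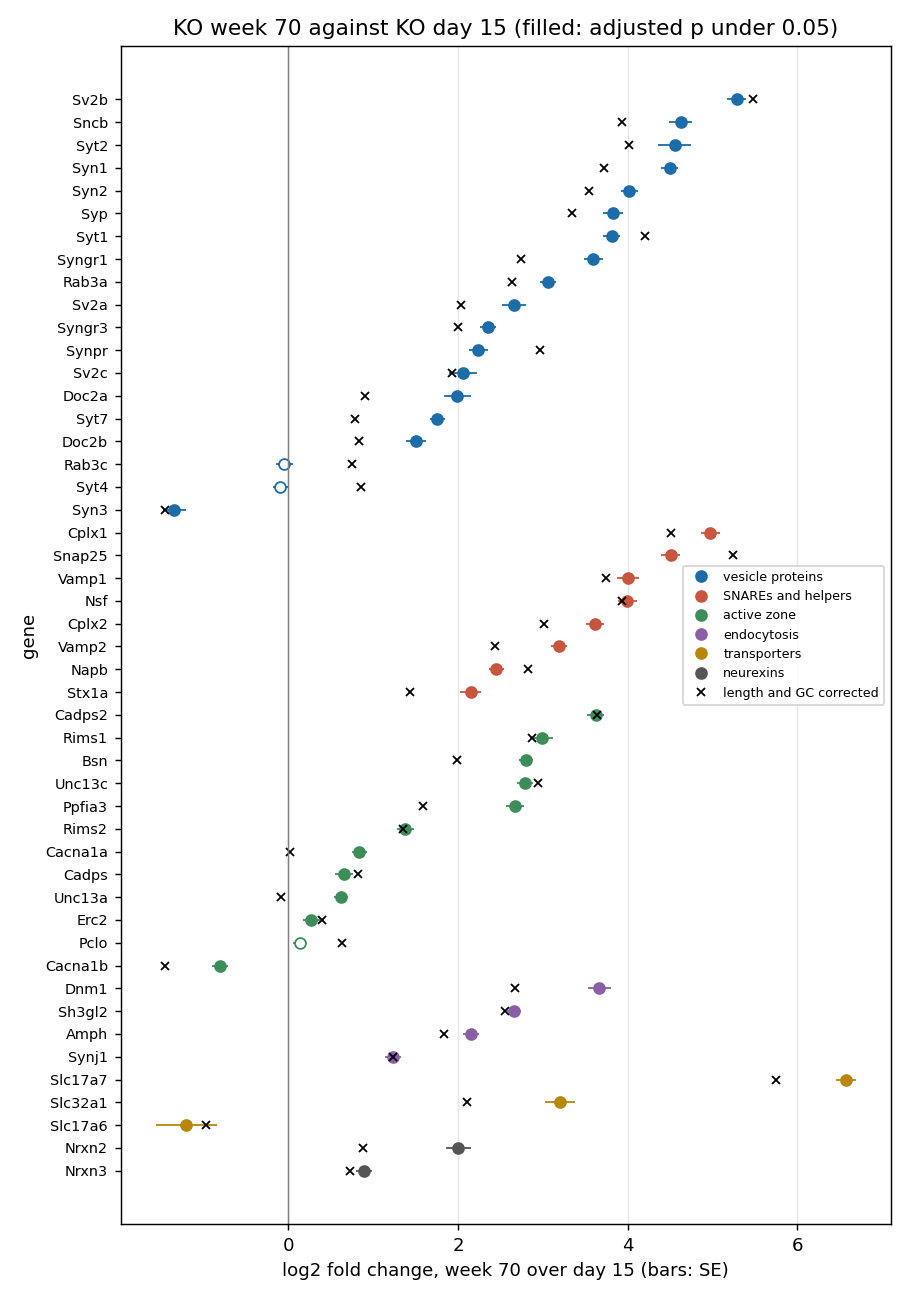
log2 fold change of KO week 70 over KO day 15 for each of the 48 genes (points, filled where the adjusted p is under 0.05; bars are 1 standard error), with the value after the length and GC correction as a cross. Values run from -1.34 for Syn3 to 6.57 for Slc17a7, and all 8 SNARE and helper genes lie above 2.

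Of the 19 vesicle protein genes, 15 fell, 3 rose and Doc2a did not pass at day 15 (median log2 fold change -0.62), and with the correction 10 were lower and 3 higher (median -0.29). The synapsins, which coat vesicles and hold them in the reserve pool, included the largest fall of the 48 genes. Syn1 was at 131, 123 and 145 CPM in the WT libraries, 29.5, 27.4 and 28.6 in the KO libraries at day 15 and 651 and 726 at week 70. Every KO library of day 15 was below every WT library and both week 70 libraries were above, a 4.54-fold fall at day 15 (log2 fold change -2.18, SE 0.0723, adjusted p = 1.59e-08) and a 22.6-fold rise with age (adjusted p = 9.42e-11; 13.2-fold corrected). Syn2 fell by 0.78 at day 15 (-0.29 corrected) and rose by 4.02 with age. Syn3, a synapsin known from developing neurons, went the other way with age. Its level was 34.6, 37.9 and 43.9 CPM in the WT libraries, 27.1, 27.0 and 25.2 in the KO libraries at day 15 and 10.3 and 12.1 at week 70, so that the 3 groups stood apart in the order WT, KO day 15, KO week 70 from high to low. The log2 fold change was -0.51 at day 15, which did not pass with the correction (-0.04, adjusted p = 0.745), and -1.34 with age (SE 0.132, adjusted p = 4.16e-06). Exons of Timp3 on the opposite strand overlap 14.1% of the Syn3 exons, and as the strand setting of the counting is not given in the sources used here, the Syn3 level is uncertain.

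Synaptophysin (Syp) and synaptoporin (Synpr) are related membrane proteins of the vesicle, and they differed in direction at day 15. Syp was at 104, 111 and 129 CPM in the WT libraries, 75.0, 65.3 and 59.6 in the KO libraries at day 15 and 951 and 1079 at week 70. Levels did not overlap between groups, and Syp fell by 0.74 in the fetal KO (log2 scale, SE 0.0973, adjusted p = 7.08e-05) and rose by 3.83 with age. Synpr was at 15.1, 16.7 and 20.4 CPM in the WT libraries, 32.0, 26.5 and 28.7 in the KO libraries at day 15 and 161 and 133 at week 70. All KO libraries of day 15 exceeded all WT libraries. The log2 fold change of 0.78 at day 15 (0.61 corrected, SE 0.121, adjusted p = 0.000241) was the largest rise of the 48 genes, and Synpr rose by 2.24 with age (2.97 corrected). The synaptogyrins, further relatives, were lower in KO, with log2 fold changes of -0.55 for Syngr1 and -0.62 for Syngr3, of which Syngr3 passed with the correction too (-0.42) and Syngr1 did not. With age they rose by 3.60 and 2.35 (2.75 and 2.00 corrected).

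Among the synaptotagmins, Syt1 is the calcium sensor of fast release. Its level was 164, 176 and 184 CPM in the WT libraries, 101, 99.2 and 96.1 in the KO libraries at day 15 and 1387 and 1589 at week 70. The groups did not overlap, and the log2 fold change at day 15 was the same with and without the correction (-0.78 in both, adjusted p = 1.89e-06 without), followed by a rise of 3.81 with age (adjusted p = 2.26e-10). Syt4, a synaptotagmin known mainly from dense-core and other vesicles, was at 162, 173 and 200.4 CPM in the WT libraries, 195, 211 and 207 in the KO libraries at day 15 and 197 and 214 at week 70. The 3 groups overlapped, the day 15 call was small (0.24, adjusted p = 0.0295) and turned to -0.37 with the correction, and no change with age passed the test (adjusted p = 0.346), although with the correction it was called higher (0.86). It did not pass at day 15 without WT replicate 1 (0.15, adjusted p = 0.122), nor without WT replicate 2, KO replicate 2 or KO replicate 3 (adjusted p = 0.0818, 0.108 and 0.0618). Syt7, a slower sensor, fell by 0.62 at day 15 but was higher with the correction at 0.26, and it rose by 1.76 with age (0.78 corrected). Syt2, the fast sensor of caudal brain regions, fell by 0.82 (adjusted p = 0.0437), a call that rested on WT replicate 3 at 14.7 CPM beside 6.36 and 5.75 in the other WT libraries. Without that library the value was -0.27 with an adjusted p of 0.197, and without 1 of the KO libraries the adjusted p was 0.0887 to 0.107. It is the WT library with Hoxa5 at 43.6 CPM, and the part of this in the Syt2 value was not tested. With the correction Syt2 was at -0.26 (adjusted p = 0.514). With age it rose by 4.56.

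SV2 proteins are vesicle glycoproteins that regulate release. All of them fell at day 15 and in the corrected fit as well. Sv2a, the main form in brain, went from 199.6 ± 14.4 in WT to 73.0 ± 8.52 CPM in KO at day 15 (SD, n = 3 each; log2 fold change -1.41) and 493 ± 112 at week 70 (SD, n = 2; 2.66 with age, 2.04 corrected). Sv2b was at 18.2, 20.4 and 23.4 CPM in the WT libraries, 12.1, 13.9 and 11.4 in the KO libraries at day 15 and 530.2 and 512 at week 70. It had the largest rise of the vesicle genes with age (log2 fold change 5.28, SE 0.107, adjusted p = 7.93e-11), after a log2 fold change of -0.69 at day 15. Sv2c fell by 1.75 (SE 0.295) from uneven WT levels of 34.4, 26.3 and 63.9 CPM, and its log2 fold change was -1.30 without WT replicate 3. That library is also the one with Hoxa5 at 43.6 CPM, and the part of this in the Sv2c value was not tested. At week 70 Sv2c reached 53.8 ± 3.27 CPM, within the range of WT day 15.

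Rab3a and Rab3c are small GTPases of the vesicle surface, and their log2 fold changes had opposite signs at day 15. Rab3a fell by 0.69 at day 15 (-0.46 corrected) and rose by 3.06 with age. Rab3c was at 359, 407 and 411 CPM in the WT libraries, 416, 442 and 455 in the KO libraries at day 15 and 414 and 495 at week 70. Its day 15 rise of 0.20 was small (adjusted p = 0.0403), did not pass with the correction (adjusted p = 0.355) or without WT replicate 1 (0.11, adjusted p = 0.17), and its log2 fold change with age was -0.05 (adjusted p = 0.694), or 0.75 and called higher with the correction. Without WT replicate 3, KO replicate 2 or KO replicate 3 the day 15 adjusted p of Rab3c was 0.0566, 0.115 and 0.0979. Beta-synuclein (Sncb), a soluble terminal protein, fell by 0.56 at day 15, did not pass with the correction (-0.12) and rose by 4.63 (3.93 corrected). The calcium-binding Doc2 proteins were at low levels: Doc2b fell by 0.48 at day 15, Doc2a was at -0.22 (adjusted p = 0.261), and they rose with age by 1.51 and 2.00 (0.83 and 0.91 corrected). With the correction Doc2a was called higher at day 15 (0.47, adjusted p = 0.0275), and Doc2b did not pass (0.01, adjusted p = 0.942). Opposite-strand exons of Ino80e overlap 39.4% of the Doc2a exons, which leaves its level uncertain. Opposite-strand genes also overlap 16.8% of the Syp exons and 14.5% of the Syt4 exons.

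Of the 8 SNARE and helper genes, 4 fell, 2 rose and 2 did not pass at day 15 (median -0.31). With the correction 4 were lower and 3 higher (median -0.04), and in both fits all 8 rose with age (median 3.81). The 3 genes of the core fusion complex did not move as 1 unit in the fetal KO. Vamp2, the vesicle SNARE, fell by 0.76 (SE 0.0658, adjusted p = 2.99e-06; -0.24 corrected), and rose by 3.19 with age (2.43 corrected). Stx1a, the syntaxin of the plasma membrane, was at 72.2 ± 2.60 in WT and 70.0 ± 3.34 CPM in KO (SD, n = 3 each), with a log2 fold change of -0.01 (adjusted p = 0.922), but it was called higher with the correction (0.44, adjusted p = 4.24e-05) and with upper-quartile scaling (0.17, adjusted p = 0.0251). With age Stx1a rose by 2.15 (1.44 corrected). Snap25, the other plasma membrane SNARE, was at 105, 118 and 130.4 CPM in the WT libraries, 148, 162 and 166 in the KO libraries at day 15 and 4073 and 3664 at week 70. Here each KO library of day 15 was above each WT library, but the rise of 0.47 (adjusted p = 0.000749) did not pass with the correction (0.16, adjusted p = 0.119). At week 70 Snap25 had the highest level of all 48 genes in CPM, a 22.7-fold rise (log2 fold change 4.51, SE 0.112, adjusted p = 1.73e-10; 5.25 corrected). Vamp1, a second vesicle SNARE, did not pass at day 15 (0.17, adjusted p = 0.224), was called higher with the correction (0.67, adjusted p = 0.000691) and rose by 4.01 with age.

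Complexins clamp and trigger the assembled SNARE complex, and both fell in the fetal KO. Cplx1 was at 45.5, 47.2 and 57.1 CPM in the WT libraries, 32.3, 35.1 and 28.1 in the KO libraries at day 15 and 1100 and 1047 at week 70. The groups stood apart, with a log2 fold change of -0.61 at day 15 (-0.34 corrected) and the largest rise of this functional group with age, 31.4-fold (SE 0.114 on the log2 scale, adjusted p = 1.21e-10). Cplx2 fell by 0.71 and rose by 3.62 (3.02 corrected). Nsf, the ATPase that takes spent SNARE complexes apart, was at 111, 114 and 133 CPM in the WT libraries, 66.1, 61.3 and 56.5 in the KO libraries at day 15 and 948 and 1151 at week 70. It had the largest fall of the group at day 15 (log2 fold change -0.92, SE 0.0825, adjusted p = 3.94e-06; -0.63 corrected). Napb, the adaptor beta-SNAP through which Nsf binds, was at 86.0, 89.3 and 97.5 CPM in the WT libraries, 124, 125 and 134 in the KO libraries at day 15 and 732 and 766 at week 70. It rose at day 15 by 0.53 (SE 0.0666, adjusted p = 4.98e-05; 0.47 corrected), opposite in sign to Nsf, and it rose by 2.45 with age.

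Of the 12 active zone genes, 7 fell and 5 did not pass at day 15 (median -0.32). With the correction the sign of that median turned to 0.25, with 7 genes higher and 2 lower, so that no direction can be given for the group. Bassoon (Bsn) and piccolo (Pclo), related giant scaffolds, were the 2 genes lower in both fits. Bsn was at 259.8, 296 and 313 CPM in the WT libraries, 69.8, 68.4 and 65.8 in the KO libraries at day 15 and 518 and 496 at week 70. It fell 4.14-fold in the fetal KO (log2 fold change -2.05, SE 0.0796, adjusted p = 2.18e-08; -0.97 corrected) with no overlap of groups, and rose by 2.80 with age (1.99 corrected). Pclo was at 179.5, 196 and 214 CPM in the WT libraries, 132, 134 and 137 in the KO libraries at day 15 and 167 and 151 at week 70. Its log2 fold change at day 15 was smaller (-0.51, adjusted p = 0.000138; -0.18 corrected), and at week 70 it lay between the fetal groups, with a change from KO day 15 that did not pass (0.14, adjusted p = 0.147) unless corrected (0.64, adjusted p = 0.000117).

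Of the priming and scaffold genes of the release site, Rims1, Rims2, Ppfia3 and Cadps2 fell at day 15. Rims1 and Rims2, which link vesicles to calcium channels, had log2 fold changes of -0.34 and -0.30, and neither passed with the correction. The priming factors Unc13a and Unc13c, the scaffold Erc2 and the priming factor Cadps did not pass, at -0.17, 0.24, -0.01 and -0.09. With the correction these genes were called higher, Unc13a by 0.74. Unc13a was close to the threshold without the correction (adjusted p = 0.0505), and passed as lower without WT replicate 1 or KO replicate 1 and in DESeq2 (adjusted p = 0.0111, 0.0304 and 0.0271). Unc13c passed as higher without WT replicate 3 (adjusted p = 0.0305). Ppfia3, a liprin scaffold, fell by 0.73, and was higher at 0.26 with the correction. Cadps2, a relative of Cadps, fell by 0.53 at day 15 and did not pass with the correction (-0.23).

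With age the active zone genes split, with 10 rising, Cacna1b falling and Pclo not passing (median 1.11). Cadps2 was at 15.5, 15.2 and 17.8 CPM in the WT libraries, 11.4, 10.7 and 10.6 in the KO libraries at day 15 and 154 and 134 at week 70. Its 12.3-fold rise (SE 0.0996 on the log2 scale, adjusted p = 3.08e-10) was the largest of the group, beside 0.66 (log2) for Cadps. Rims1 rose by 2.99, Unc13c by 2.79, Ppfia3 by 2.68 (1.59 corrected) and Rims2 by 1.38. Unc13a rose by 0.62 and Erc2 by 0.27. The Erc2 call was near the threshold (adjusted p = 0.0327) and did not pass without week 70 replicate 1, at 0.10 with an adjusted p of 0.339, nor without 1 of the KO day 15 libraries (adjusted p = 0.0651 to 0.107), nor with upper-quartile scaling (adjusted p = 0.831). The Unc13a rise was not kept with the correction (-0.08).

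The presynaptic calcium channel genes parted with age. Cacna1b, the pore of the N-type channel, was at 186, 201 and 225 CPM in the WT libraries, 151, 146 and 134 in the KO libraries at day 15 and 81.7 and 94.9 at week 70. The 3 groups did not overlap and ran downward from WT to KO day 15 to week 70, with log2 fold changes of -0.47 at day 15 (adjusted p = 0.000463) and -0.80 with age (SE 0.0991, adjusted p = 2.57e-05). With the correction its day 15 value turned to 0.29, and its value with age was -1.45. Cacna1a, the pore of the P/Q-type channel, did not pass at day 15 (-0.19, adjusted p = 0.0563; 0.75 corrected) and rose by 0.84 with age (0.02 corrected). Without WT replicate 1 it passed as lower at day 15 (adjusted p = 0.0109). P/Q-type channels are known to take over from N-type channels at many maturing synapses.

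Of the 4 endocytosis genes, 2 fell and 2 did not pass at day 15 (median -0.30), while with the correction 1 was higher and 3 did not pass (median 0.05), and all 4 rose with age (median 2.41). Dynamin 1 (Dnm1), the GTPase that cuts vesicles from the membrane, was at 217, 214 and 233 CPM in the WT libraries, 140.2, 133 and 109.5 in the KO libraries at day 15 and 1524 and 1940 at week 70. The log2 fold change at day 15 was -0.76 (SE 0.0855, adjusted p = 2.28e-05) and 0.01 with the correction, and Dnm1 had the largest rise of the 4 with age (3.67, SE 0.138, adjusted p = 2.41e-09; 2.67 corrected). Amphiphysin (Amph), which brings dynamin to the vesicle neck, fell by 0.45 and rose by 2.15. The lipid phosphatase Synj1 and its partner endophilin (Sh3gl2) did not pass at day 15, at -0.15 and -0.03, and rose by 1.24 and 2.66 with age. With the correction Sh3gl2 was called higher at day 15 (0.20, adjusted p = 0.0173) and Amph did not pass (-0.22, adjusted p = 0.0522). Synj1 passed as lower at day 15 without WT replicate 1 (adjusted p = 0.0137).

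The vesicular transporters fill vesicles with glutamate (Slc17a6 and Slc17a7) or with GABA and glycine (Slc32a1). At day 15 Slc17a7 and Slc32a1 fell and Slc17a6 did not pass. Slc17a7 was at 33.8, 31.5 and 33.6 CPM in the WT libraries, 17.1, 14.5 and 16.0 in the KO libraries at day 15 and 1646 and 1582 at week 70. The KO libraries of day 15 were all below the WT libraries (log2 fold change -1.02, SE 0.0869, adjusted p = 2.79e-06; -0.36 corrected), and the rise with age was the largest of the 48 genes (log2 fold change 6.57, SE 0.113, adjusted p = 5.39e-11). Slc32a1 was at 47.2, 52.4 and 56.3 CPM in the WT libraries, 17.2, 17.5 and 10.6 in the KO libraries at day 15 and 137 and 160.2 at week 70. It fell by 1.75 at day 15 (SE 0.158, adjusted p = 4.27e-06; -1.06 corrected) and rose by 3.20 (2.11 corrected). The antisense gene Gm14205 overlaps 24.9% of its exons. Slc17a6 was at 105, 119 and 120.1 CPM in the WT libraries, 118, 126 and 127 in the KO libraries at day 15 and 26.3 and 88.9 at week 70. The fetal groups overlapped (0.15, adjusted p = 0.0889), and both week 70 libraries were below all KO day 15 libraries but differed widely from each other. The log2 fold change with age was -1.20 (SE 0.359, adjusted p = 0.00984), -0.56 without week 70 replicate 1 and -2.33 without week 70 replicate 2.

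Both neurexin genes fell at day 15 and rose with age. Nrxn2 was at 415, 456 and 502 CPM in the WT libraries, 139, 118 and 90.1 in the KO libraries at day 15 and 475 and 520.1 at week 70. The fetal groups were far apart (log2 fold change -1.95, SE 0.135, adjusted p = 6.35e-07; -0.72 corrected), and Nrxn2 rose by 2.01 with age (adjusted p = 3.93e-07; 0.88 corrected). Of the week 70 libraries, 1 lay within the range of WT day 15 and the other above it. Nrxn3 fell by 0.53 (SE 0.0547, adjusted p = 1.15e-05), a value that was -0.01 with the correction, and rose by 0.89 with age.

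Ratios of related genes within a library do not depend on how libraries are scaled, and 21 pairs among the 48 genes were compared. The ratio is the log2 of 1 count over the other, with 0.5 added to each. With 3 libraries against 3 or 2, the exact two-sided permutation test cannot give a p under 0.1, and the smallest adjusted value over the pairs and both comparisons was 0.114, so no ratio can pass. Groups did not overlap for 16 of 21 pairs at day 15 and for all 21 with age. Of single tested genes, 68.3% and 87.9% did not overlap in these comparisons. The share among other pairs of genes was not computed, so the pair counts are not read as particular to these pairs. At day 15 the largest move was in Syn3/Syn1, from -1.78 ± 0.122 in WT to -0.11 ± 0.0822 in KO (SD, n = 3 each), a gain of 1.67 that was 1.63 with the correction. Bsn/Pclo went from 0.56 ± 0.0328 to -0.98 ± 0.0669, and Synpr/Syp from -2.72 ± 0.0582 to -1.20 ± 0.127. The Bsn/Pclo move of -1.54 was -0.79 with the correction, and the Synpr/Syp move of 1.53 was 0.96.

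**Figure D5:**
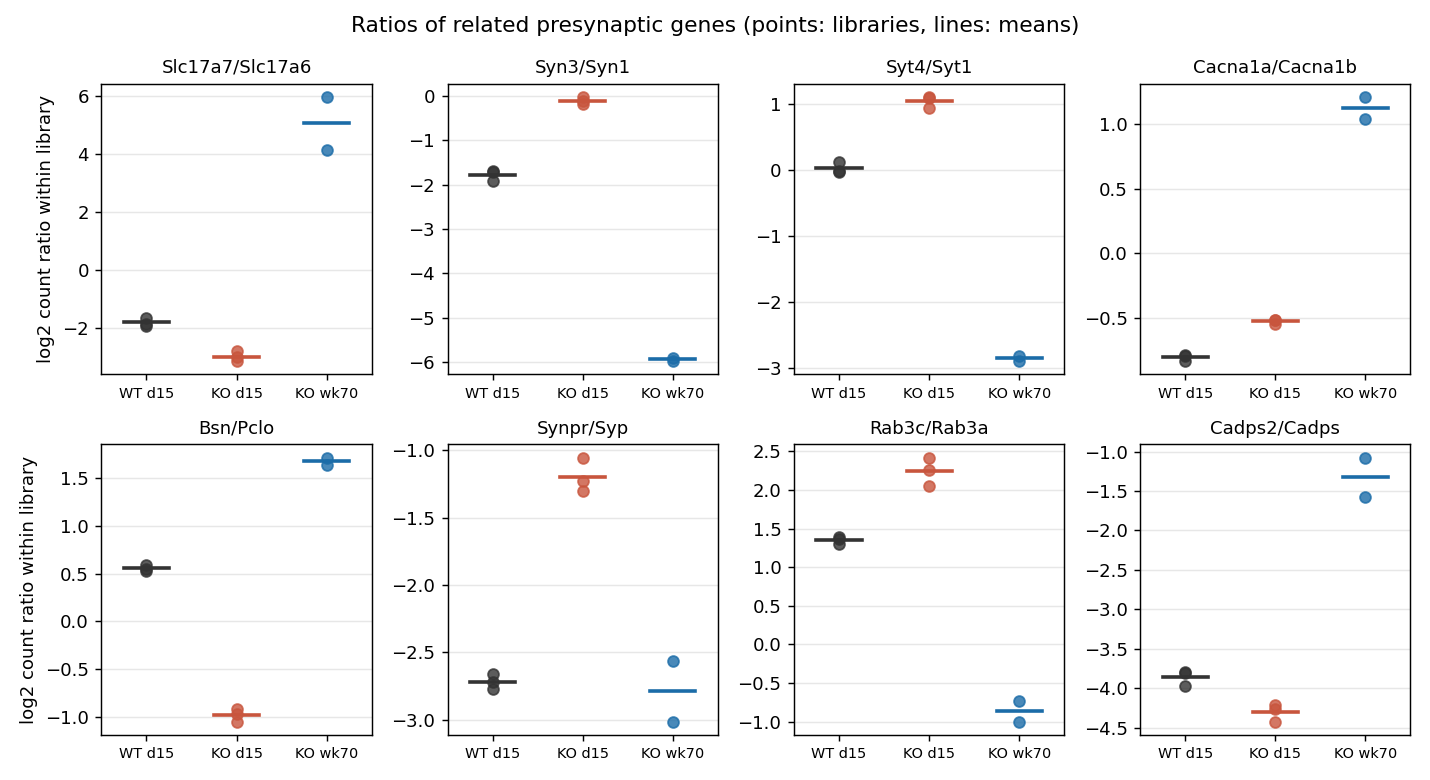
log2 count ratio within each library (points) and group mean (lines) for 8 pairs of related presynaptic genes in WT day 15, KO day 15 and KO week 70, each panel with its own vertical axis. Slc17a7/Slc17a6, Cacna1a/Cacna1b and Bsn/Pclo are above 0 in both week 70 libraries, while Syn3/Syn1, Syt4/Syt1 and Rab3c/Rab3a are below 0 there.

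With age the pair of glutamate transporters moved most. Slc17a7/Slc17a6 was -1.79 ± 0.148 in WT and -2.97 ± 0.164 in KO at day 15 (SD, n = 3 each), and 5.06 ± 1.28 at week 70 (SD, n = 2), where the libraries were at 5.97 and 4.15. Per kilobase of exon, Slc17a7 had 0.289 times the level of Slc17a6 in WT, 0.128 times in KO day 15 and 33.4 times at week 70. Syn3/Syn1 was -5.94 ± 0.0515 at week 70, and Syt4/Syt1 went from 1.05 ± 0.0900 at KO day 15 to -2.85 ± 0.0545. Cacna1a/Cacna1b went from -0.52 ± 0.0176 to 1.12 ± 0.121, and per kilobase from 0.606 to 1.89. The Rab3c/Rab3a ratio was 1.36 in WT, 2.24 in KO day 15 and -0.86 at week 70. Per kilobase, Rab3c had 0.473, 0.875 and 0.101 times the level of Rab3a, the lower of the pair in each group. Cadps2/Cadps was -3.86, -4.30 and -1.33 in the same order, and per kilobase 0.109, 0.0802 and 0.627. With the correction the moves with age were 6.72 for Slc17a7/Slc17a6 (8.02 without), -5.17 for Syn3/Syn1 (-5.83) and -3.35 for Syt4/Syt1 (-3.90). They were 1.478 for Cacna1a/Cacna1b (1.645 without), -1.89 for Rab3c/Rab3a (-3.11) and 2.82 for Cadps2/Cadps (2.97).

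Ordering the 3 groups by the levels in CPM, 30 of the 48 genes had KO day 15 lowest, WT day 15 in between and KO week 70 highest, with no overlap. Synpr, Snap25 and Napb stood in the order WT, KO day 15, week 70. For Doc2a, Stx1a, Erc2, Cadps and Sh3gl2, and for Vamp1 and Unc13c, the fetal groups overlapped and week 70 was higher. Syn3 and Cacna1b were lowest at week 70 and highest in WT. Sv2c and Nrxn2 had KO day 15 below overlapping WT and week 70 levels, Pclo had week 70 between the fetal groups, Slc17a6 had week 70 below overlapping fetal groups, Rab3c had WT below overlapping KO groups, and Syt4 overlapped in all. In all, 36 genes had 3 separate groups, and 29 of them kept their order with upper-quartile scaling. Over all tested genes, 68.3% did not overlap between the fetal genotypes and 87.9% did not overlap between the KO ages. The share of all genes with 3 separate groups, or in a given order, was not computed, so these counts are a description only.

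Levels of different genes were compared in CPM per kilobase of exon. In WT the highest levels were those of Rab3a at 69.0, Vamp2 at 63.8 and Cplx2 at 51.3. In KO day 15 the leading gene was Syt4 at 52.6, ahead of Rab3a at 41.5 and Vamp2 at 36.6. These levels and ranks carry no GC correction. With the length and GC correction the day 15 log2 fold change of Syt4 turned from 0.24 to -0.37, so its lead is uncertain. At week 70 Snap25 led with 569.7, ahead of Cplx1 with 490.3 and Cplx2 with 402.4. Slc17a7 moved from rank 39 of 48 in WT and 40 in KO day 15 to rank 8 at week 70, and Slc17a6 from 16 and 9 to 42. Syn1 stood at rank 7 in WT, 27 in KO day 15 and 9 at week 70.

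Beside the 48 genes, 87 further presynaptic genes were listed by the same functions. At day 15, 85 were tested, of which 45 fell (52.9%), 20 rose (23.5%) and 20 did not pass (median -0.28). With the correction 27 fell and 24 rose, and the median was 0.05, near that of all genes. Among genes with a mean of at least 50 counts, the largest falls were those of Rims4, a small RIM protein (59.6 ± 2.85 CPM in WT, 19.3 ± 3.06 in KO; log2 fold change -1.59, SE 0.105, adjusted p = 4.45e-07), and Ap2a1, a subunit of the clathrin adaptor (154.5 ± 3.19 and 57.0 ± 6.09 CPM; -1.40). Among their rises was that of Lrrtm2, a neurexin partner (29.5 ± 2.83 CPM in WT and 56.5 ± 6.76 in KO; log2 fold change 0.98, SE 0.104, adjusted p = 1.47e-05).

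With age, 61 of 86 tested further genes rose, 14 fell and 11 did not pass (median 1.10, and 1.16 with the correction). Cplx3, a complexin of retina and some cortical neurons, rose from 0.133 ± 0.120 CPM, below what 3 counts give in these libraries, to 33.0 ± 13.4. Synj2, a relative of Synj1, rose from 1.63 ± 0.200 to 133 ± 3.41 CPM (log2 fold change 6.25, SE 0.121, adjusted p = 7.08e-11). Slc18a2, the vesicular monoamine transporter, fell from 43.9 ± 0.274 to 3.68 ± 2.22 CPM (log2 fold change -3.68, adjusted p = 2.21e-07), and Unc13b, a relative of Unc13a, from 114 ± 3.29 to 39.6 ± 0.512 CPM (-1.63, adjusted p = 3.2e-08). By function, 9 of 11 SNARE genes, 17 of 21 endocytosis genes, 16 of 20 vesicle genes and 9 of 11 neurexin genes and partners rose. Of 19 active zone genes 10 rose and 7 fell, and of the 4 further transporter genes 2 fell and none rose. The summed level of 6 oligodendrocyte markers was 78.3 to 84.9 CPM in KO day 15 and 12990 to 13090 at week 70, and that of 6 astrocyte markers 111.5 to 123.6 and 2345 to 2379, and their part in these values was not tested.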

How the data were processed

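The values are raw counts that the authors deposited in 1 table, genes by 8 libraries and not normalised, per the file headers. FastQC, cutadapt, Trimmomatic, HISAT2, featureCounts and edgeR, and the builds GRCm38 and GRCm39, are named without roles in the submitters' processing notes. Strand, multi-mapping and annotation settings are not given in the sources used here. Per the labels' protocols, poly-T beads enriched the mRNA, cDNA was primed with random hexamers, and the fetal brains were biological replicates. p-values measure the spread between these libraries.

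The test was that of edgeR 4.0.16 on R 4.3.3 (filterByExpr by group, TMM scaling, two-sided quasi-likelihood test, Benjamini-Hochberg adjustment over all tested genes, threshold 0.05), with the 6 fetal libraries for genotype and the 5 KO libraries for age. Printed CPM use TMM over all 8 libraries. A floor of 3 counts equals 0.144 to 0.213 CPM by library and covers counting error only. Exon length and GC content came from GENCODE on GRCm38, which matched 33367 of the 34299 genes and all 48 members, and were used only as gene properties. For the corrected fit, a smooth trend of every library on length and GC (mgcv 1.9.3) was used as an offset. Functions were tested on simulated data.

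The members, lists and tests were chosen with earlier results of these data known. Values in every library are given for the called member with the largest rise and fall of each role in each comparison (mean of at least 50 counts), for the 3 pairs whose ratio moved most in each comparison, and for members that did not pass where 5 or fewer did not. Of the further genes, the 2 largest rises and falls in each comparison, with the same minimum count, are named, except 1 gene that is not reported here. Other members shown in this way were chosen after their values were seen. Alternatives were DESeq2 1.42.0, upper-quartile and RLE scaling, genes unfiltered or filtered at a mean count of 10, 1 fit of all 8 libraries, a table without haemoglobin and mitochondrially encoded genes, the length and GC correction, the replicate number as a block, and each library left out. The replicate numbers did not pair the libraries: same-numbered fetal libraries had correlations of deviations from -0.169 to -0.144.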

Additional observations from a re-analysis of the deposited data

How the results depend on the processing

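With the length and GC correction at day 15, 14 of the 48 genes were higher and 19 lower, and 27 further presynaptic genes were lower, in place of 5, 32 and 45. Other settings gave 3 higher genes with no filter, 3 with all 8 libraries in 1 fit and 10 with upper-quartile scaling. With age, 5 genes in place of 3 were lower with upper-quartile scaling. Leaving out 1 library gave 3 to 5 higher and 31 to 35 lower genes at day 15, and 41 to 42 higher and 3 lower with age. With the replicate block alone, 37 and 45 of the 48 genes were called, as without it, and the block changed no call of these genes. The block with the correction gave 14 higher, 19 lower and 25 further lower genes. The causes were not tested.

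Signs turned at day 15 with the correction, without and with the replicate block, for Syt4 (-0.37 in both), Syt7 (0.26 in both), Syngr1 (0.10 in both), Doc2a (0.47 and 0.49), Doc2b (0.011 and 0.018), Stx1a (0.44 in both), Unc13a (0.74 in both), Rims2 (0.063 and 0.062), Erc2 (0.23 in both), Ppfia3 (0.26 in both), Cadps (0.29 and 0.30), Cacna1a (0.75 and 0.76), Cacna1b (0.29 and 0.30), Synj1 (0.10 in both), Dnm1 (0.01 in both) and Sh3gl2 (0.20 in both). Upper-quartile scaling turned Stx1a (0.17), Unc13a (0.0057), Erc2 (0.16), Cadps (0.082), Synj1 (0.023) and Sh3gl2 (0.14). Stx1a also turned with the filter at a mean of 10 counts (0.0041), without haemoglobin and mitochondrially encoded genes (0.015), and without WT replicate 3 (0.0082) or KO replicate 3 (0.031), in a range of -0.049 to 0.031 over libraries left out, and Erc2 without haemoglobin and mitochondrially encoded genes (0.0088) and without WT replicate 2 (range -0.077 to 0.00075). With age, Syt4 turned in the fit of all libraries (0.0075), with the correction (0.86) and with block and correction (0.82), Rab3c in the same fits (0.055, 0.75 and 0.73) and without week 70 replicate 1 (range -0.18 to 0.090), Unc13a with the correction and with block and correction (-0.084 and -0.082), and Pclo with upper-quartile scaling (-0.11). Without 1 WT library the day 15 moves of the ratios Syt2/Syt1 (range -0.16 to 0.48), Sv2c/Sv2a (-0.53 to 0.060) and Rims1/Rims2 (-0.13 to 0.054) turned.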
